A study of Mus musculus with 7 samples.

Results

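Notch signalling passes between neighbouring cells. Ligands of the Delta and Jagged families on the surface of a cell bind Notch receptors on its neighbour, the receptor is cut, and its intracellular part enters the nucleus, joins the DNA-binding protein RBPJ and switches on *Hes* and *Hey* genes, which encode repressors. In the embryonic retina, *Hes1* and *Hes5* hold progenitors undifferentiated by repressing proneural genes, while newborn neurons and neurogenic progenitors carry Delta ligands and so keep their neighbours in the progenitor state.

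The expression of 10 genes of this pathway was followed in embryonic day 16 mouse retina after loss of *Ptbp1*, which encodes an RNA-binding repressor of neuronal splicing. They are the receptors *Notch1*, *Notch2* and *Notch3*, the ligands *Dll1*, *Dll3*, *Dll4* and *Jag1*, and the nuclear factors *Hes1*, *Hes5* and *Hes6*. They were chosen by gene symbol, and all 10 have a row among the 48440 genes of the count table and passed the expression filter that left 20019 genes for testing. The 7 mRNA libraries were 1 from Chx10Cre control retinas (WT), 3 from Chx10-Cre;Ptbp1lox/WT (Het) and 3 from Chx10-Cre;Ptbp1lox/lox (KO), each made from a pool of 4 to 6 retinas. Cre is driven by the *Chx10* promoter, which acts in retinal progenitors, so vessels, blood and microglia in a pool are not its known targets, and all 3 genotypes carry the Cre transgene. The WT group is a single library and its values have no error.

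Total counts per library ranged from 120593979 to 171117305, and the 10 genes held between 566 and 55707 counts in a library, a counting error of 0.424% to 4.20% of the value. Levels are given as CPM, the count relative to the TMM-scaled library total. *Ptbp1* itself was at 381 CPM in WT, 210.3 to 234 CPM in Het and 6.04 to 46.9 CPM in KO, with the lowest value in KO2 and the highest in KO3. The tissue label matched its markers, since the 9 genes of a retinal progenitor list summed to 6150 to 6604 CPM in every library and none of them was called. Pools differed in other tissues: 1 library, Het1, held 272 CPM of 9 skeletal muscle genes against 4.84 to 5.95 CPM in the other 6, and 524 CPM of 8 pigmented cell genes against 20.5 to 60.5 CPM.

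The *Hes5* promoter is shown because *Hes5* is the target gene of the set that was called in KO, and because the letters GTGGGAA, the sequence RBPJ is known to bind, occur in it. The window is the 250 bases before the annotated start, on the plus strand, at chr4:154960673-154960922 of GRCm38.p6 (RefSeq), and capitals mark the matches on either strand.

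*Hes5* promoter: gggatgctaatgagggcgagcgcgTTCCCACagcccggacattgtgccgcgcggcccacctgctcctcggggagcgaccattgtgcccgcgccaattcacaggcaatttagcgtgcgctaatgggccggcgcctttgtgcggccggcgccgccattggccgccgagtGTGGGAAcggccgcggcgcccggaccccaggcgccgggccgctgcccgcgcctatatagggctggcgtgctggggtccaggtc

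The first match is on the minus strand and begins 226 bases before the start, and the second, on the plus strand, begins 83 bases before it. Of 32851 mouse promoters of 300 bases in RefSeq, 6.38% held GTGGGAA on either strand and 0.256% held it more than once. Promoters were found for 9 of the 10 genes, all but *Hes1*, and *Hes5* was the only 1 of these 9 with a match. A match of letters is a description and not evidence of binding.

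KO was compared with Het by edgeR's quasi-likelihood test across all 20019 genes, and, with the limits the study used, a gene was called when its adjusted p (Benjamini-Hochberg) was under 0.05 and its log2 fold change was beyond 0.26 in either direction. *Dll1*, *Notch1* and *Hes5* rose in KO to 125%, 123% and 125% of the Het mean, *Notch3* fell to 81.0% of it, and *Dll3*, *Dll4*, *Jag1*, *Notch2*, *Hes1* and *Hes6* were not called. Thus 4 of the 10 genes were called, 3 higher and 1 lower, where 7.22% of all genes tested were called, 4.01% higher and 3.21% lower. For 6 of the 10, Het and KO values were fully separate, as they were for 36.3% of all genes tested. The 10 genes were picked with earlier results of these data known, so these shares are a description. Their median log2 fold change was -0.034, beside -0.0047 over all genes tested.

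**Figure D1:**
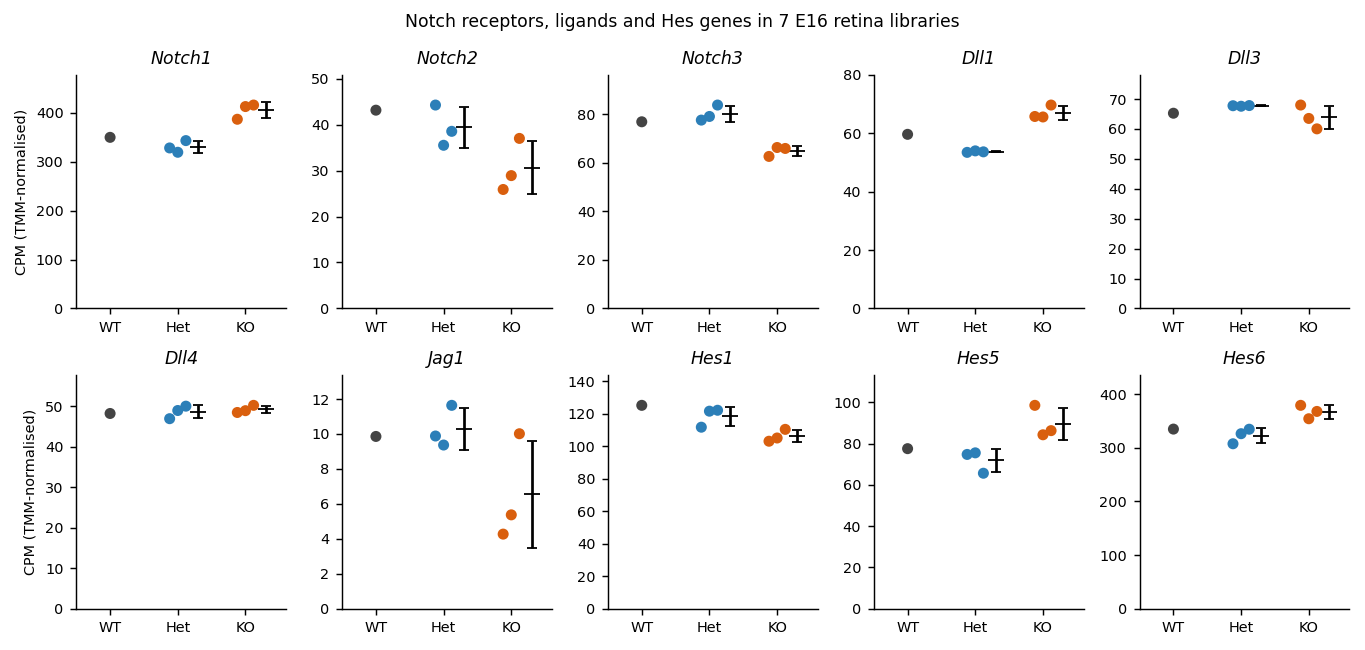
Level of each of the 10 genes in CPM (vertical axes, from 0) in the WT, Het and KO libraries, with 1 point per library and bars for the mean ± SD of the 3 Het and 3 KO libraries. All KO points lie above all Het points for Notch1, Dll1, Hes5 and Hes6, and below them for Notch3 and Hes1.

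Among the ligands, *Dll1*, a Delta ligand of neurogenic progenitors that activates Notch on neighbouring cells, had the smallest adjusted p of the set. *Dll1* (ENSMUSG00000014773.13; GRCm38 chromosome 17, 15367354 to 15376872, minus strand) was at 59.6 CPM in WT, at 53.5, 54.0 and 53.6 CPM in Het1 to Het3, and at 65.8, 65.6 and 69.7 CPM in the KO libraries. The Het libraries differed little from each other, by less than the counting error of their counts would give on average. Every KO library lay above WT and above every Het library. The means were 53.7 ± 0.259 CPM in Het and 67.0 ± 2.31 CPM in KO (SD, n = 3 each), giving a log2 fold change of 0.32 (standard error 0.0315, edgeR adjusted p = 0.00514). It was called in all 6 leave-one-out fits. An overlapping gene on the opposite strand, *A930024N18Rik*, held at most 667 counts in a library, and whether the counting used strand is not given in the sources used here.

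*Dll3*, a ligand that acts on Notch within the same cell and does not activate it in neighbours, was the most abundant ligand per length. It was at 65.3 CPM in WT, 67.8, 67.6 and 67.8 CPM in Het and 68.0, 63.5 and 60.03 CPM in KO. KO1 lay above all 3 Het libraries and KO2 and KO3 below them, and the log2 fold change was -0.085 (standard error 0.0460, edgeR adjusted p = 0.264). *Dll4*, a Delta ligand of newborn retinal neurons and of vessel tips, had the smallest log2 fold change of the 10. It was at 48.2 CPM in WT, 46.9, 49.0 and 50.02 CPM in Het and 48.5, 48.9 and 50.2 CPM in KO, so that the genotypes overlapped. Its log2 fold change was 0.017 (standard error 0.0330, edgeR adjusted p = 0.765), and without Het1 it was -0.0088. An opposite-strand gene, *Gm14207*, overlaps *Dll4* and held at most 814 counts.

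*Jag1*, the Jagged ligand, which the lens, the ciliary margin and vessels also express, was the scarcest and most variable ligand. It was at 9.86 CPM in WT, 9.88, 9.37 and 11.6 CPM in Het and 4.27, 5.37 and 10.01 CPM in KO. KO1 and KO2 were below every other library, and KO3 lay within the Het range. The log2 fold change was -0.65 (standard error 0.305, edgeR adjusted p = 0.206), and *Jag1* was not called. It was called in 1 of the 6 leave-one-out fits, the fit without KO3, with a log2 fold change of -1.09.

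Summed per length, the 4 ligands came to 50.9 ± 0.585 CPM per kb in Het and 52.2 ± 0.667 in KO (SD, n = 3 each), against 51.2 in WT. Within that sum the share of *Dll1* was 25.0% ± 0.279 in Het and 30.4% ± 1.02 in KO, with 27.6% in WT. The share of *Dll3* was 46.7% ± 0.517 and 42.9% ± 2.51, and that of *Jag1* 3.47% ± 0.368 and 2.16% ± 0.998. The KO total was 103% of the Het total, and the share of *Dll1* was higher in each KO library than in WT and each Het library.

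Among the receptors, *Notch1*, the main receptor of retinal progenitors, rose. *Notch1* (ENSMUSG00000026923.15; chromosome 2, 26457903 to 26516663, minus strand) was at 349.6 CPM in WT, 328, 319 and 343 CPM in Het and 387, 412 and 416 CPM in KO. Every KO library was above WT and above every Het library, and WT was above the Het range. The Het mean of 329.98 ± 12.1 CPM and the KO mean of 405 ± 15.9 CPM (SD, n = 3 each) gave a log2 fold change of 0.29 (standard error 0.0437, edgeR adjusted p = 0.0130). *Notch1* was no longer called without Het2, when its log2 fold change was 0.27, or without KO2, when it was 0.28.

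*Notch3*, a receptor of neural progenitors and of the mural cells that wrap vessels, fell. *Notch3* (ENSMUSG00000038146.7; chromosome 17, 32120820 to 32166852, minus strand) was at 76.8 CPM in WT, 77.5, 79.0 and 83.7 CPM in Het and 62.6, 66.2 and 65.8 CPM in KO. Here WT lay just below the Het range and all 3 KO libraries below both. The means were 80.1 ± 3.23 CPM in Het and 64.9 ± 2.02 CPM in KO (SD, n = 3 each), giving a log2 fold change of -0.30 (standard error 0.0399, edgeR adjusted p = 0.00938), and it was called in all 6 leave-one-out fits.

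*Notch2*, a receptor also used by pigmented and ciliary epithelium and by vessels, spread more within each genotype. It was at 43.1 CPM in WT, 44.2, 35.5 and 38.5 CPM in Het and 25.9, 28.9 and 37.0 CPM in KO. As for *Jag1*, KO1 and KO2 were below every other library and KO3 lay within the Het range. The log2 fold change was -0.37 (standard error 0.141, edgeR adjusted p = 0.143). *Notch2* was called without KO3, with a log2 fold change of -0.52, and by DESeq2, with -0.37.

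The receptor sum per length was 36.7 ± 1.27 CPM per kb in Het and 39.3 ± 1.80 in KO (SD, n = 3 each), with 38.1 in WT. *Notch1* made up 64.5% of it in WT, 63.1% ± 0.332 in Het and 72.4% ± 0.669 in KO. *Notch3* made up 26.9% ± 0.758 in Het and 20.4% ± 0.403 in KO, and *Notch2* 9.95% ± 1.06 and 7.19% ± 1.07. In these shares the scaling between libraries cancels, and for all 3 receptors Het and KO were fully separate. The shares add up to the whole, so they are not separate results. The CPM of *Notch2* itself overlapped, at 35.5 to 44.2 in Het and 25.9 to 37.0 in KO.

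**Figure D2:**
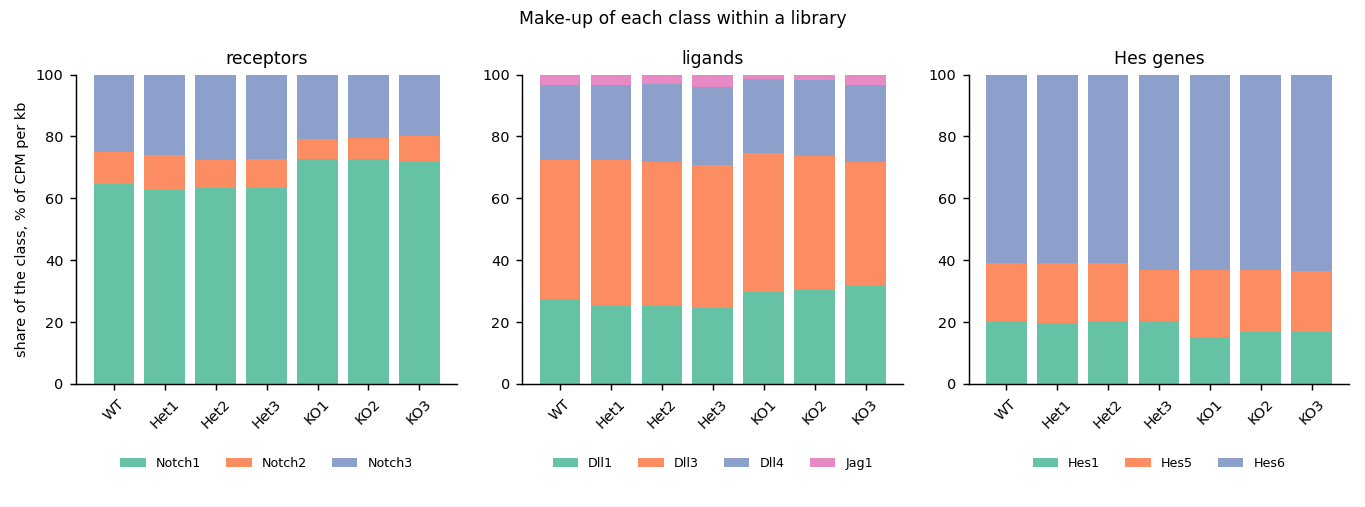
Share of each gene in its class in each of the 7 libraries, as percent of the summed CPM per kb of the class (bars stacked to 100%). The Notch1 share is 71.6% to 72.8% in the KO libraries and 62.7% to 63.4% in the Het libraries, and the Dll1 share is 29.5% to 31.6% and 24.7% to 25.2%.

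The target genes did not move together. *Hes5* (ENSMUSG00000048001.7; chromosome 4, 154960923 to 154962371, plus strand), whose promoter is printed above, was at 77.6 CPM in WT, 74.8, 75.5 and 65.6 CPM in Het and 98.5, 84.3 and 86.3 CPM in KO. KO1 was the highest library and Het3 the lowest, and no KO library reached down to WT. Its log2 fold change was 0.32 (standard error 0.0776, edgeR adjusted p = 0.0475), and it was called in 0 of the 6 edgeR fits with 1 library left out, with log2 fold changes from 0.25 to 0.36, while DESeq2 called it and the unadjusted edgeR p on all 7 libraries was 0.00511. With RLE in place of TMM scaling it was also not called, with a log2 fold change of 0.32.

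*Hes1* (ENSMUSG00000022528.7; chromosome 16, 30064384 to 30067796, plus strand), the broadly expressed repressor that sustains progenitors, was at 125 CPM in WT, 112, 121 and 122 CPM in Het and 103, 105 and 110.3 CPM in KO. The order was WT, then Het, then KO, although Het1 at 112 CPM and KO3 at 110.3 CPM were close. The log2 fold change was -0.16 (standard error 0.0461, edgeR adjusted p = 0.0747), so *Hes1* was not called, nor was it in any of 16 alternatives to the processing. Its size stayed within the fold-change limit in each of them, from -0.20 to -0.14. The adjusted p of *Hes1* was below 0.05 by DESeq2 (0.0134) and by edgeR without Het1 (0.0470), where the fold-change limit alone kept it from being called.

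*Hes6*, which is made in differentiating cells and opposes *Hes1*, was the most abundant of the 10 per length. It was at 335 CPM in WT, 308, 326 and 335 CPM in Het and 379, 354 and 368 CPM in KO, so that the KO libraries lay above all others. The log2 fold change was 0.19 (standard error 0.0442, edgeR adjusted p = 0.0449), which passed the limit on adjusted p and not the limit on fold change.

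The log2 ratio of *Hes5* to *Hes1* counts within a library needs no scaling between libraries. It was -0.69 in WT, -0.58, -0.69 and -0.89 in Het1 to Het3, and -0.064, -0.32 and -0.35 in KO1 to KO3. The mean was -0.72 ± 0.161 in Het and -0.25 ± 0.158 in KO (SD, n = 3 each), which is 1.39 times as many *Hes5* counts per *Hes1* count. No test is given, because this pair was picked for its opposite directions.

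**Figure D3:**
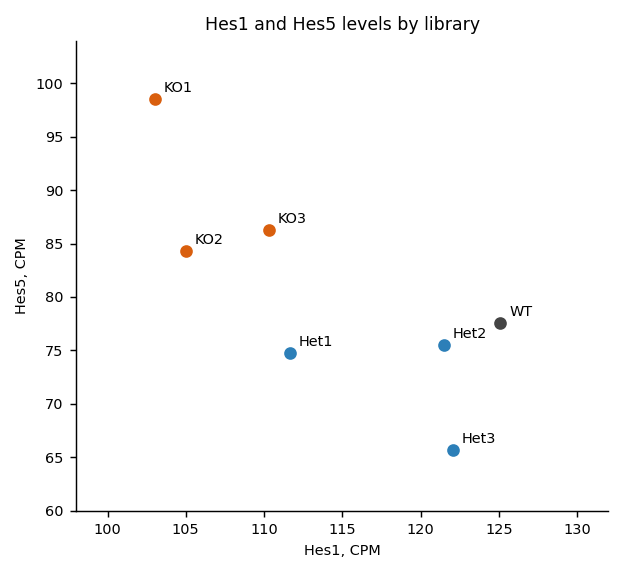
Hes5 level against Hes1 level in each library, both in CPM on axes that do not start at 0. The 3 KO libraries lie at the upper left, with Hes5 at 84.3 to 98.5 CPM and Hes1 at 103 to 110.3 CPM, and WT lies at the right with 125 CPM of Hes1.

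Per length, the order of levels in Het was *Hes6* at 179 CPM per kb, *Hes1* at 58.1, *Hes5* at 52.8, *Dll3* at 23.8, *Notch1* at 23.2, *Dll1* at 12.7, *Dll4* at 12.6, *Notch3* at 9.90, *Notch2* at 3.66 and *Jag1* at 1.77. In KO *Hes5*, at 65.8 CPM per kb, stood above *Hes1* at 52.1, and *Notch1*, at 28.4, above *Dll3* at 22.4. The neighbours *Hes1* and *Hes5*, *Dll3* and *Notch1*, and *Dll1* and *Dll4* in the Het order overlapped over the 3 Het libraries, and the other neighbours did not.

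The WT library lay between the Het and KO means in 7 of the 10 genes, and outside the Het range in 7, above it in *Notch1*, *Dll1*, *Hes1*, *Hes5* and *Hes6* and below it in *Notch3* and *Dll3*. Measured against WT, the KO mean was 116% for *Notch1*, 112% for *Dll1*, 116% for *Hes5*, 109.6% for *Hes6*, 84.5% for *Notch3* and 84.8% for *Hes1*. In each of these 6 genes all 3 KO libraries were beyond the WT value on the same side as they were beyond Het. These 6 were the genes whose Het and KO values were already fully separate. The share of all genes tested with such WT positions was not computed, so these counts are a description. *Dll1* and *Hes5* were at 90.0% and 92.8% of WT in Het, so that the rise from Het to KO was larger than the distance from WT to KO.

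Among 10051 genes with a mean of at least 10 CPM, the profile over the 7 libraries most like that of *Hes1* belonged to *Zik1*, *Ivns1abp* and *Smim15*, at root mean square distances of 0.013, 0.021 and 0.022 on the log2 scale. The nearest to *Hes5* were *Cplx3*, *Gadd45gip1* and *Pfkp*, at 0.033, 0.046 and 0.051. The log2 levels of *Hes1* and *Hes5* themselves spanned 0.28 and 0.59 over the 7 libraries.

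The 10 genes were set in a list of 65 pathway genes grouped by role, and no role was tested as a group. Of the 65, 7 were called higher and 2 lower in KO, 26 had a positive and 39 a negative log2 fold change, and the median was -0.052. The calls outside the 10 genes were *Hey2*, *Heyl* and *Hes2* among the Hes and Hey factors, *Lfng* among the glycosyltransferases and *Numbl* among the genes of receptor turnover, that is 5 of 55, or 9.09%, against 7.22% of all genes tested. None of the 9 genes of receptor cleavage, 4 of ligand endocytosis, 7 of the nuclear complex or 12 corepressors was called by edgeR. Only 1 of the 9 receptor cleavage genes had a positive log2 fold change, with a median of -0.10. Their sum was 634 to 639 CPM in Het and 583 to 596 CPM in KO. The sums of ligand endocytosis, nuclear complex and corepressor genes overlapped between Het and KO. Of the 65 genes, 30 had an unadjusted edgeR p below 0.05, against 5952 of all 20019 genes tested. DESeq2 called 11 of the 65, against 2070 of the 29424 genes it tested.

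*Lfng*, the Fringe enzyme that adds sugars to Notch receptors and tunes which ligands they answer, was the glycosyltransferase that rose. It was at 53.8 CPM in WT, 50.7, 49.3 and 49.8 CPM in Het and 81.5, 68.3 and 73.6 CPM in KO, all KO values being above all others. Its log2 fold change was 0.58 (standard error 0.0625, edgeR adjusted p = 0.00650), and it was called in all 16 alternatives. The related *Mfng* and *Rfng* had log2 fold changes of -0.039 and -0.060, and *Pofut1*, which adds the sugar that Fringe extends, of 0.0072.

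Of the other target genes, *Heyl* was at 77.3 ± 5.68 CPM in Het and rose to 108 ± 13.4 CPM in KO (SD, n = 3 each), with WT at 68.1 CPM, a log2 fold change of 0.48 (standard error 0.0956, edgeR adjusted p = 0.0272). *Hey2* was at 6.04 ± 0.248 CPM in Het and rose to 10.4 ± 2.05 CPM in KO (SD, n = 3 each), with WT at 5.73 CPM, a log2 fold change of 0.78 (standard error 0.140, edgeR adjusted p = 0.0212). Both encode repressors closely related to the Hes factors. Neither was called without Het2 or without Het3, with log2 fold changes down to 0.39 and 0.60 over the leave-one-out fits, and *Heyl* was not called without KO2. *Hes2* rose from 13.6 ± 0.628 to 16.4 ± 0.923 CPM (SD, n = 3 each), which gave a log2 fold change of 0.27 (standard error 0.0637, edgeR adjusted p = 0.0429), and was called in only 1 of 6 such fits, the one without KO3. *Hey1* had a log2 fold change of -0.067.

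*Numbl*, a relative of the Notch inhibitor Numb, fell from 65.3 ± 1.39 to 53.3 ± 2.14 CPM (SD, n = 3 each), which gave a log2 fold change of -0.29 (standard error 0.0366, edgeR adjusted p = 0.00831), and was called in all 6 leave-one-out fits. The log2 fold change of *Numb* was -0.073. *Rbpj*, the DNA-binding partner of the receptors, is named for its role although it was not called. It was at 177 CPM in WT, 133, 119.6 and 150.3 CPM in Het and 143, 205 and 191 CPM in KO, so that KO1 overlapped the Het range, and its log2 fold change was 0.42 (standard error 0.143, edgeR adjusted p = 0.108). The most abundant genes of the remaining roles, *Adam10*, *Mib1*, *Dtx4*, *Ep300* and *Ctbp1*, had log2 fold changes of -0.16, -0.057, -0.030, 0.069 and -0.051.

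**Figure D4:**
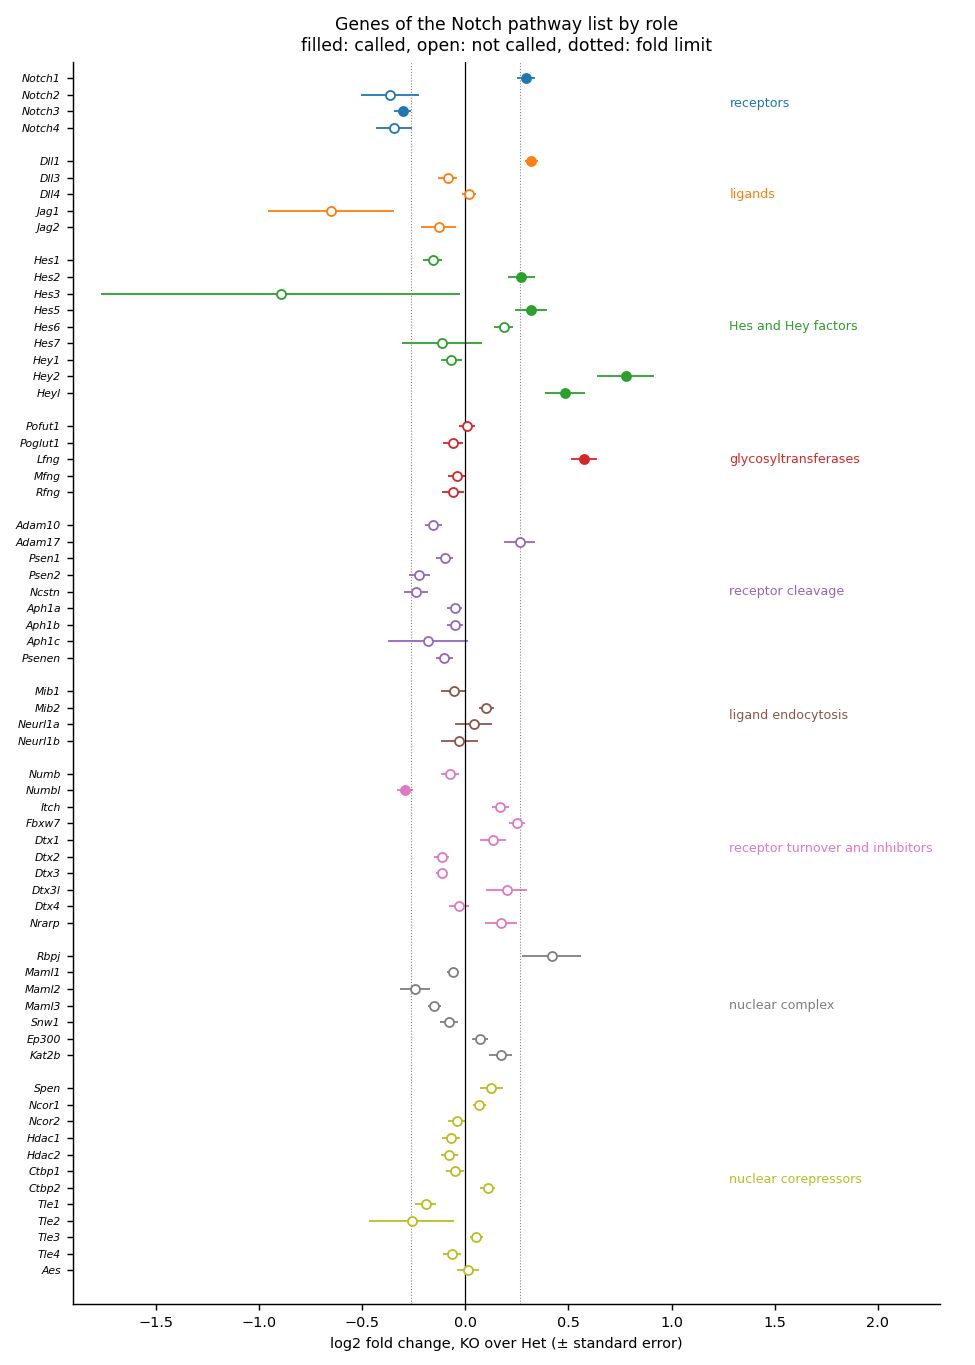
Log2 fold change of KO over Het (horizontal axis, with the standard error) for the 65 pathway genes grouped by role, filled where called and open where not, with dotted lines at the fold-change limit of 0.26. The 7 filled points to the right of 0 are Notch1, Dll1, Hes2, Hes5, Hey2, Heyl and Lfng, and the 2 to the left are Notch3 and Numbl.

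*Atoh7*, the proneural factor of ganglion cell precursors, fell from 145 ± 13.6 to 82.6 ± 9.14 CPM (SD, n = 3 each), which gave a log2 fold change of -0.81 (standard error 0.0984, edgeR adjusted p = 0.00783). *Neurog2* had a log2 fold change of -0.18. Both belong to a list of 10 neurogenic progenitor genes that did not fall as a set. Of the 10, 5 had a positive log2 fold change, and the median was 0.0044. In whole retina, a change in the number of cells that express a gene and a change in RNA per cell cannot be told apart.

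Most endothelial markers, and the erythroid markers, moved with *Jag1* and *Notch2*. The 12 endothelial genes had a median log2 fold change of -1.59, and 9 of them were lower in KO1 and KO2 than in each other library. Their sum without *Kdr*, which alone supplied 361 to 562 CPM and itself rose (log2 fold change 0.44, edgeR adjusted p = 0.0186; not called without Het2 or Het3), was 47.9 CPM in WT, 34.3 to 67.9 CPM in Het, and 25.0, 20.8 and 43.7 CPM in the KO libraries in order. The defining marker *Cdh5* was at 0.988, 0.555 and 4.41 CPM in KO1 to KO3 and at 3.21 to 9.77 CPM in Het. *Cldn5*, like *Kdr* among the 3 of the 12 genes with a positive log2 fold change, went the other way. It was at 14.4, 12.1 and 15.2 CPM in KO1 to KO3 and at 11.0 to 13.2 CPM in Het. All 6 erythroid genes were lowest in KO1 and KO2, and their summed level was 36.6, 24.0 and 297 CPM in KO1 to KO3 against 187 to 526 CPM in Het. The share of all genes tested that were lowest in KO1 and KO2 was not computed.

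All 10 mural cell genes had a negative log2 fold change, and 5 of them were lowest in KO1 and KO2. Their sum was 24.7, 23.6 and 37.8 CPM in KO1 to KO3, against 100.2 CPM in Het1, the library with muscle genes, and 36.6 and 56.5 CPM in Het2 and Het3. The muscle genes *Acta2*, *Des* and *Myh11* of this list were at 20.2, 18.8 and 14.1 CPM in Het1 and at most 2.39 CPM in every other library. Of the 10 mural genes only *Pdgfrb* and *Vtn* were called, both lower, and, like *Notch3*, they were below Het in all 3 KO libraries. *Pdgfrb* was at 15.9 to 19.2 CPM in KO and 22.2 to 23.5 CPM in Het, and was not called without Het2, Het3, KO1 or KO2. *Vtn* was at 2.09 to 2.56 CPM in KO and 3.28 to 3.54 CPM in Het. *Rgs5*, also of this list, was at 0.551, 0.274 and 7.84 CPM in KO1 to KO3 and at 5.25 to 15.7 CPM in Het, so that its KO3 value lay within the Het range. Lens genes, whose tissue also expresses *Jag1*, summed to 4.20, 8.46 and 61.2 CPM in KO1 to KO3 and to 39.4 to 107.7 CPM in Het. Their WT sum, 19.96 CPM, lay below every Het library, while *Jag1* in WT lay within its Het range. Of the 10 lens genes, 8 were lowest in KO1 and KO2, and of the 9 tested, 3 had a positive log2 fold change. Of the 8 pigmented cell genes, 4 were lowest in KO1 and KO2, and none of the muscle or microglia genes was. *Notch4*, the receptor of endothelium, was at 11.3 ± 0.912 CPM in Het and 8.87 ± 0.656 CPM in KO (SD, n = 3 each), with an adjusted p of 0.0527 (edgeR), and was not called. Microglia genes summed to 49.5 to 70.0 CPM in Het and 71.6 to 96.5 CPM in KO. The part of these other cells in the values of *Jag1*, *Notch2* and *Notch3* was not tested.

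**Figure D5:**
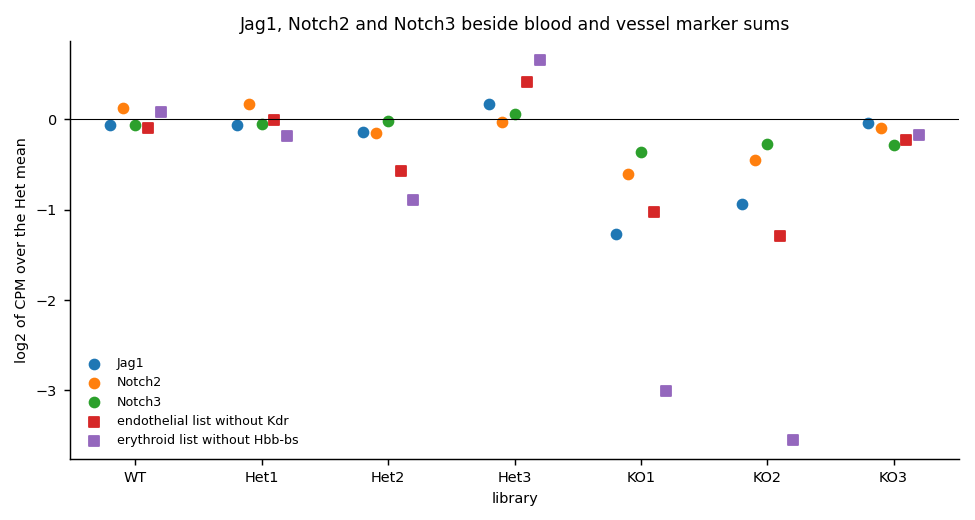
Log2 of the CPM over the Het mean (vertical axis) in each library for Jag1, Notch2 and Notch3 (circles) and for the summed endothelial genes without Kdr and erythroid genes without Hbb-bs (squares). KO1 and KO2 are low in Jag1, Notch2 and both marker sums while KO3 lies near the Het mean, and Notch3 is low in all 3 KO libraries.

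On the chromosomes around them, 0 to 2 of the 20 nearest tested genes were called by edgeR for each of the 10 genes, against 7.22% of all genes tested. For the 4 called genes the number was 0 around *Notch1* and *Notch3* and 2 around *Dll1* and *Hes5*, with median log2 fold changes of the neighbours from -0.074 to 0.071. The antisense gene overlapping *Hes5*, *Gm20421*, held at most 17 counts, and the genes overlapping *Notch1* and *Notch3* at most 77 and 18.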

How the data were processed

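Bulk RNA-seq libraries of pooled E16 retinas were measured in 3 genotypes. The authors ran STAR through rMATS-turbo against GRCm38 (mm10, GENCODE M10), then featureCounts, and deposited raw whole-number counts per gene. Tool versions, strand setting and multi-mapping rules are not given in the sources used here. Counts were fitted in edgeR 4.0.16 (R 4.3.3) with filterByExpr, TMM factors from 0.988 to 1.03, 1 mean per genotype over all 7 libraries and the quasi-likelihood test for KO against Het, with Benjamini-Hochberg adjustment over the 20019 genes tested. The standard error is the absolute log2 fold change over the square root of F. The common dispersion was 0.0460. Gene lengths (merged exons) and positions come from GENCODE M21, also on GRCm38. The scripts were tested on simulated data with 200 changed genes. There edgeR called 167 of the changed genes and 9 unchanged ones, and DESeq2 called 181 and 91. No 2 replicates were copies of each other (averaged over genes, the variance between replicates was 14.0 to 53.2 times that of counting alone).

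The genes and lists were chosen with earlier results of these data known. Named are the 10 genes, every other called pathway gene and the most abundant of each role, up to 3 markers of a list, and the 3 genes nearest to *Hes1* and *Hes5*. *Rbpj*, *Numb*, *Mfng*, *Rfng*, *Pofut1*, *Hey1*, *Notch4*, *Neurog2*, *Atoh7*, *Cdh5*, *Vtn*, *Acta2*, *Des*, *Myh11* and overlapping genes were named for their role, with values seen. The pools are called separate samples by the labels, so p-values measure the spread between pools. The lists also covered lens, pigmented, muscle, microglia and erythroid genes. Alternatives were DESeq2 1.42.0, other scalings, filters, thresholds and sample sets, the replicate number as a block, and each library left out. A fit on protein-coding genes alone was chosen after seeing the data. Counting errors cover counting alone. The result for 1 further gene is not reported here.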

Additional observations from a re-analysis of the deposited data

How the results depend on the processing

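Over 16 alternatives, 142 of the 160 values of the 10 genes kept their direction and their side of the limits, 13 lost a call, 4 gained one, and 1 changed sign: *Dll4*, at -0.0088 without Het replicate 1 and up to 0.038 without another library. Leaving out 1 library gave 386 to 1674 calls over all genes (386 without Het2, 496 without Het3, 612 without KO2), 2 to 5 among the 10 (2 without Het2 or KO2) and 4 to 12 among the 65 pathway genes (4 without Het2, 5 without Het3). An adjusted p alone gave 2221, 5 and 16. A test against the fold limit itself (edgeR's glmTreat) gave 217, 0 and 1, where 1 of the 10 had an unadjusted glmTreat p below 0.05, edgeR's quasi-likelihood test called 4 and DESeq2 5. DESeq2 called 2070 genes in all, and protein-coding genes alone gave 1302. With the replicate block 1268, 4 and 9 genes were called. The labels do not say whether the replicate numbers pair the libraries, and 3 pairs are too few to decide it. Same-numbered Het and KO libraries correlated in their deviations at -0.197, 0.195 and 0.017, and no Het library was most like the KO library of its number. Adding 2 counts left the *Hes5* to *Hes1* difference at 0.47. Averaged over genes, the variance between replicates was at least 14.0 times that of counting alone, so on that average the 3 pools per genotype limit precision more than depth does. This does not hold for each of the 10 genes. The SD of *Dll3* over the 3 Het libraries was 0.178% of its mean, below the smallest counting error of the set, 0.424%. The Het SD of *Dll1* was 0.482% of its mean, also below the counting error of its own 6430 to 9082 counts.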
